A study of Mus musculus with 16 samples.

Results

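The 35 genes described here encode ion channels of the heart, their accessory subunits and a few regulators of the conduction system. They were found by symbol in both deposited expression tables, as 35 of 38087 genes in experiment A and 35 of 54232 genes in experiment B. The list was drawn up by symbol, with earlier results of these data known. Experiment A compared whole-heart RNA in 3 wild-type and 3 CAP2 -/- Ion Total RNA-Seq libraries, all from C57BL/6 females aged 86 weeks. CAP2 is an actin regulator, and CAP2 -/- denotes loss of both copies of its gene. Experiment B compared C57BL/6 mice aged 13 weeks that carried loxP sites on both Cap2 copies (Loxp/Loxp), with stranded Illumina TruSeq mRNA libraries. The 5 libraries without Cre are called controls (2 of them male), and the 4 with Myh6-Cre are called Cre+ (1 of them male). Each library is called a heart below, though the labels do not state that libraries are separate animals. Myh6 drives Cre in cardiac muscle cells, both groups carried the loxP alleles, and the effects of the Cre transgene and of Cap2 loss cannot be told apart because no Cre+ group without loxP sites was analysed here.

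A heartbeat begins in pacemaker cells, whose HCN channels pass a depolarizing current between beats, and spreads through the conduction system to the working muscle. There the sodium current gives the upstroke of the action potential, the calcium current triggers contraction, and several potassium currents end it. In mouse ventricle the fast transient outward current, carried by Kv4 pore subunits (Kcnd2, Kcnd3) with the accessory subunit KChIP2 (Kcnip2), does much of this repolarization. The inward rectifier current (Kcnj2, Kcnj12) holds the resting potential, and transcription factors of the Irx and T-box families set which channels are made in which region of the heart.

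A pair of members passed the test in experiment A in opposite directions, and their promoters are shown so that the sequence before each start site can be read beside its values. RefSeq promoter entries (GRCm38) matched 25 of the 35 genes, with 26 promoters in all, and the 250 bases before each start were searched on both strands. Kcnip2 lies on chromosome 19 (minus strand), with its promoter at chr19:45816064-45816313, and Kcnk1 lies on chromosome 8 (plus strand), with its promoter at chr8:125994852-125995101. Both are printed 5′ to 3′ along the strand of the gene and end at the base before the start site. Capitals mark a match to CATTCC, the MCAT motif bound by TEAD factors, which in Kcnk1 lies on the opposite strand and so reads in reverse complement.
Kcnip2: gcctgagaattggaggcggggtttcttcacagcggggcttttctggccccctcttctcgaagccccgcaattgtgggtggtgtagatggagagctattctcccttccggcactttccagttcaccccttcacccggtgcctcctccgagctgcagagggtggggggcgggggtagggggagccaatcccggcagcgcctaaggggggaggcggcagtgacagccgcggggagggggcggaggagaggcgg
Kcnk1: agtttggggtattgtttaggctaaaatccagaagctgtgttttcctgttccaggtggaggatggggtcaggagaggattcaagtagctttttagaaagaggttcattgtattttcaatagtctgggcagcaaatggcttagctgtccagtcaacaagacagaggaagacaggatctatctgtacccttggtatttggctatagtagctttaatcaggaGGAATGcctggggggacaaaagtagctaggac
The Kcnip2 stretch was rich in G and C, at 66.8%, against 44.4% for Kcnk1. MCAT was matched in 5 of the 26 member promoters (Cacna1s, Cacna2d2, Kcna5, Kcnk1 and Scn7a), and in 12.6% of all 32851 promoters. The CArG box, the site of SRF, was matched in 0 of the 26 and in 1.47% of all promoters, the MEF2 site in 0 and 2.92%, and the T-box site GGTGTGA in 0 and 3.33%. A match is a description of the letters in this window and says nothing of binding.

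Total estimated counts ran from 10750175 to 27440478 per library in experiment A. In experiment B the totals ran from 3815980 to 4044523 after the authors' normalization, so the depth behind them is unknown. Cap2 itself fell from 214 to 12.2 CPM (counts scaled to a common library size) in experiment A (log2 fold change −4.13, adjusted p = 1e-07, edgeR) and from 391 to 65 normalized counts in experiment B (−2.22, adjusted p = 0.0161, limma), with no overlap between groups. Cardiomyocyte markers (10 of 10) were present in every library. Experiment B was less even. Control replicate 4, a male, differed from the other controls by a chi-square of 71.8 to 103 per gene, against 19.3 to 34.6 between the others, and had the highest control value for 17 of the 35 members. Markers of atrial muscle, 12 in all, summed to 3598 to 12221 normalized counts in controls and 86437 to 182263 in Cre+ hearts, mostly through Nppa. The defining atrial marker Myl7 stood at 21, 344, 3014, 16 and 58 in control replicates 1 to 5 and at 105, 6996, 10677 and 17044 in Cre+ replicates 1 to 4. In experiment A Myl7 was near 0 throughout, at 1.1 to 1.74 CPM. The same 12 markers nevertheless summed there to 917 to 1072 CPM in wild type and 4804 to 5847 CPM in CAP2 -/- hearts. Of the 11 tested, 10 had log2 fold changes above 0 and 1 below (median 0.76), and Dkk3, Myl1 and Nppa were called higher. The list thus rose in experiment A while Myl7 stayed near 0. The mitochondrial share of experiment B ran from 30.4% to 69.5% in controls and from 23% to 52.7% in Cre+ hearts.

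The levels of the members spanned a wide range. Per kilobase of exon, Kcnk3, the acid-sensitive background potassium channel TASK-1, was highest in wild-type hearts of experiment A at 105 CPM per kb. Kcnip2 followed at 70.5 and Scn4b, the β4 sodium channel subunit, at 39.3 CPM per kb. The ATP-sensitive channel subunit Kcnj11 (29.8), the hERG channel Kcnh2 (21.3) and the acetylcholine-gated subunit Kcnj5 (20.4) came next, and Kcnh2 and Kcnj5 differed by less than the spread between libraries of Kcnh2. The transient outward subunit Kcna4 was the lowest of the 35 at 0.173 CPM per kb. Controls of experiment B gave the same top pair, Kcnk3 at 367 and Kcnip2 at 289 normalized counts per kb, whose ranges between libraries overlapped, and Kcna4 was again low, at 1.24 ± 0.866, within the spread of Kcnk1 at 1.34 ± 1.1 (SD, n = 5). In CAP2 -/- hearts Kcnip2 stood above Kcnk3, at 125 against 90.2 CPM per kb.

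**Figure D1:**
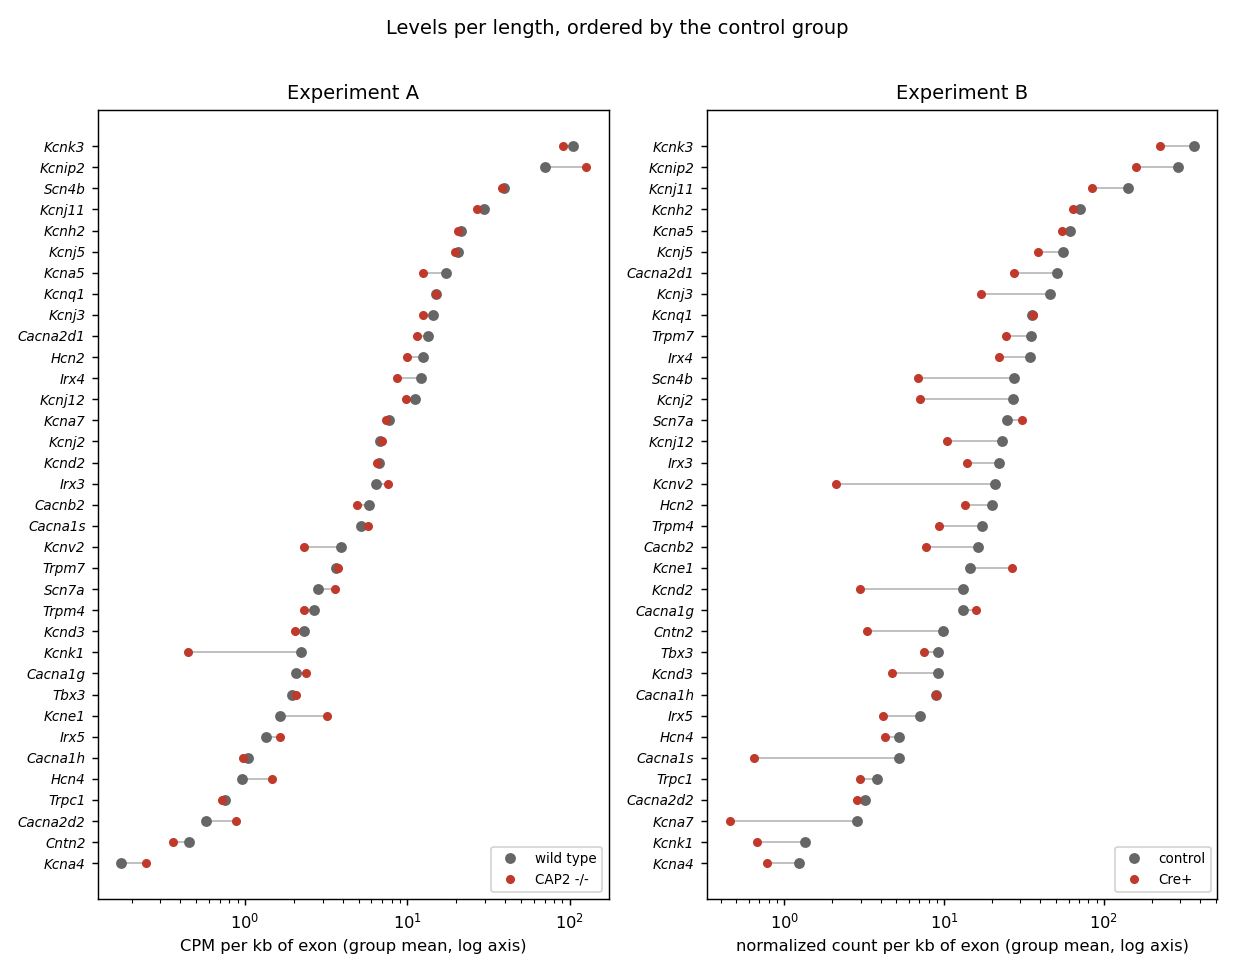
Group mean of each gene per kilobase of exon on a log axis, in CPM (experiment A) and normalized counts (experiment B), ordered by the control group (grey), with CAP2 -/- or Cre+ in red. Kcnk3 and Kcnip2 lead in both experiments, Kcna4 is lowest in experiment A and next to Kcnk1 in experiment B, and most red points of experiment B lie left of the grey ones.

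In CAP2 -/- hearts at 86 weeks, Kcnip2 rose 1.78-fold and Kcnk1 fell to 0.203 of its wild-type level, and these were the 2 members of 35 that passed an adjusted p of 0.05 in edgeR, against 1.35% of all 16297 genes tested (220 genes, 137 higher and 83 lower). The members' median log2 fold change was −0.05, with 21 of 35 below 0, beside a median of 0.0057 and 49.1% below 0 over all genes. At an unadjusted p under 0.05, 6 members were lower and 4 higher, against 5.32% and 5.11% of all genes. The groups did not overlap for 7 members lower in CAP2 -/- hearts (Kcnk1, Kcnv2, Irx4, Kcna5, Hcn2, Cacnb2 and Kcnd3) and 4 higher (Kcnip2, Kcne1, Hcn4 and Cacna2d2), against 8.00% and 7.63% of all genes. The authors' deposited table called 5 members (Kcnip2, Kcnk1, Kcne1, Kcnv2 and Irx4) against 2.61% of the genes with an adjusted p in it, and DESeq2 called 4 (the same without Irx4) against 2.21%. Sums of 8 fibroblast markers ran from 801 to 873 CPM in wild type and from 1203 to 1222 CPM in CAP2 -/- hearts. Of the 8, 6 had log2 fold changes above 0 and 2 below, with a median of 0.17, and Mfap5 was called higher. The part of these markers in the members' values was not tested. In whole-heart RNA, fewer cells of a type and less RNA per cell cannot be told apart.

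In Cre+ hearts at 13 weeks most members had lower means than in controls, and 1 was called. The log2 fold change, on the log2(normalized count + 1) scale and with sex in the limma fit, was below 0 for 26 of the 32 members tested, against 58.5% of 12141 genes, and its median was −0.71 against −0.12. Kcnv2 alone passed an adjusted p of 0.05, against 1.88% of all genes (228 genes, 115 higher and 113 lower). At an unadjusted p under 0.05, 15 members were lower, against 14.2% of all genes, and 0 were higher, against 7.89%. The groups did not overlap for 5 members (Kcnv2, Kcnk3, Scn4b, Kcnj2 and Kcnj12), all lower in Cre+ hearts, against 4.79% of all genes lower and 3.87% higher. TMM scaling moved the median of all genes to −0.012 and raised the share of calls that were higher from 50.4% to 70%, and quantile normalization gave 211 higher and 124 lower, or 63%. Relative to all genes the members' median was −0.60 as fitted, −0.59 with TMM and −0.61 with quantile scaling, with 24 of 32 below 0 under both. Without control replicate 4 the members' median relative to all genes was −0.43, with 25 of 32 below 0. With the atrial marker score as a covariate, 27 of 32 were below 0, with a median of −0.48 against −0.18 for all genes and 0 members called. In that fit the log2 fold changes of Kcnip2, Irx3, Irx4, Cacnb2, Kcnj2, Kcnd3 and Scn4b were −0.033, −0.09, −0.13, −0.41, −0.48, −0.56 and −0.72. Each was smaller in size than without the score. Kcnk3, Trpm4 and Kcnj12 were at −0.73, −0.85 and −1.04. The score averaged all 12 genes of the atrial list, among them Nppa and Myl1, whose groups did not overlap. Myl1 did not follow Myl7: it read 90 to 328 in controls and 1265 in Cre+ replicate 1, where Myl7 was 105. A score without Nppa and Myl1 was not formed. It ran from −1.11 to 0.322 in controls and from −0.319 to 1.3 in Cre+ hearts. Because the score moved with the groups, this fit cannot tell atrial tissue from group. Fibroblast markers also moved with the groups: all 8 had log2 fold changes above 0 (median 1.47), Postn and Mfap5 were called higher, and their sums were 3038 to 12721 in controls and 10419 to 30322 in Cre+ hearts. The 10 cardiomyocyte markers had a median log2 fold change of −0.43, with 6 below 0 and 4 above, and Pln was called lower. The part of either marker list in the members' values was not tested.

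The single Cre+ hearts differed in how far the members shifted. In Cre+ replicate 1, whose Myl7 of 105 lay within the range of the controls, 23 of 32 members were below the control median, against 47.6% of all genes, and 8 below all 5 controls, against 13.1%, and the median log2 difference from the control mean was −0.26 against 0.05 for all genes. Cre+ replicates 2, 3 and 4 had 14, 14 and 15 of 32 members below all controls, against 24.2%, 20.4% and 30.3% of all genes, and median differences of −0.73, −0.64 and −0.80. The same medians over all genes were −0.15, 0.02 and −0.24. The 3 Cre+ hearts with the most Myl7 were those with the lower medians, and the part of atrial tissue in these values was not tested. Over both experiments, which share no library, 18 of the 32 members tested in both (56.2%) were lower in both, against 33.3% of 11806 genes. A further 8 were higher in experiment A and lower in experiment B, against 25.4%. As 26 of the 32 were below 0 in experiment B alone, the count lower in both partly restates that shift. Agreement between the experiments was not tested.

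**Figure D2:**
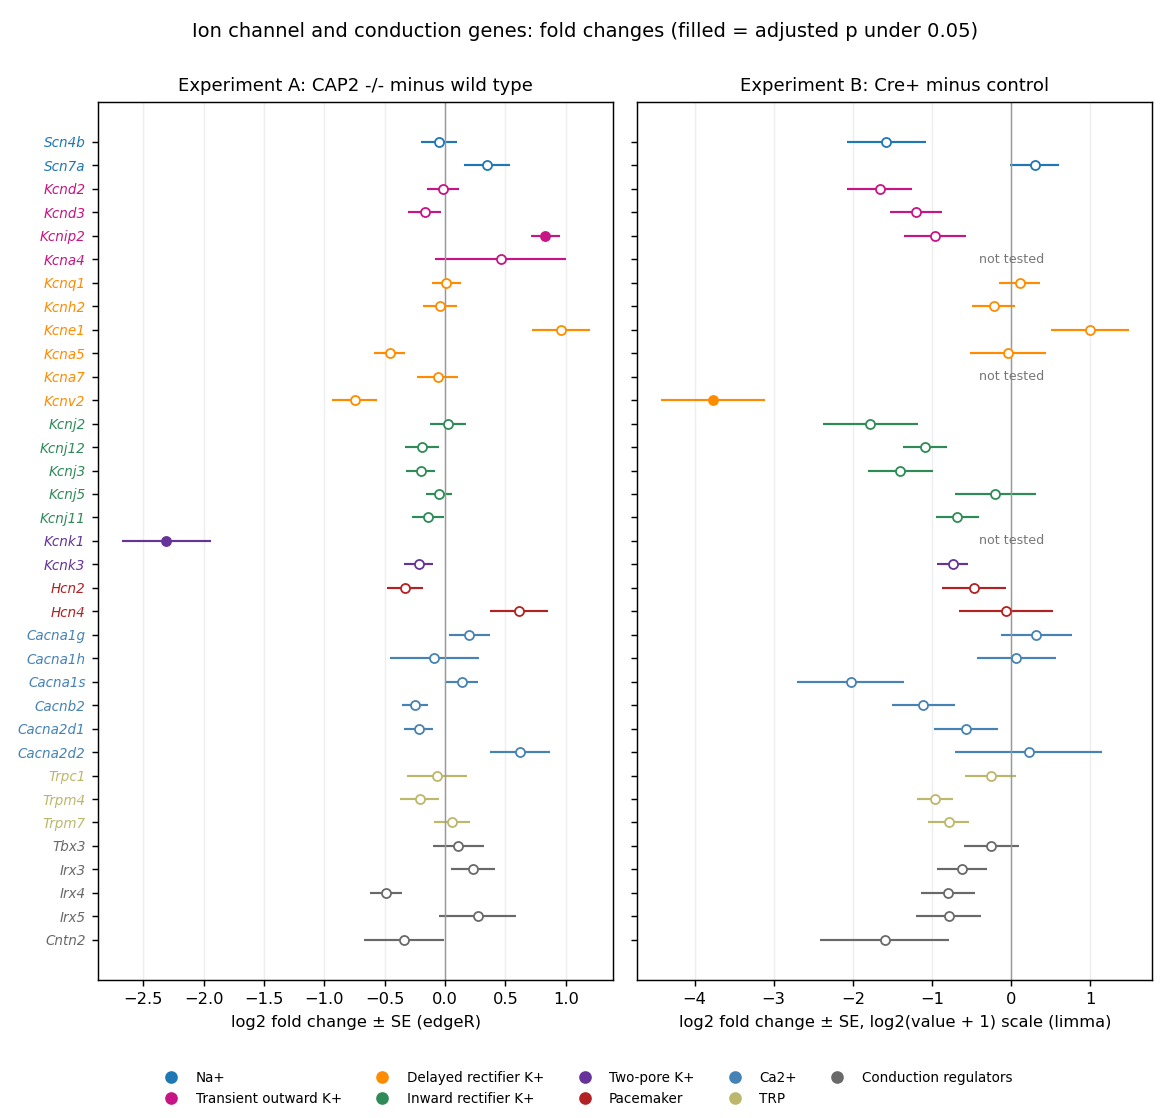
Log2 fold change of each member with its SE, by current, for CAP2 -/- against wild type (left, edgeR) and Cre+ against control (right, limma). Filled points passed an adjusted p of 0.05: Kcnip2 higher and Kcnk1 lower in experiment A, Kcnv2 lower in experiment B.

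The member that rose belongs to the transient outward current. Kcnip2, the subunit that brings Kv4 channels to the membrane and speeds their recovery, read 269, 237 and 229 CPM in the 3 wild-type hearts and 468, 396 and 443 in the 3 CAP2 -/- hearts. Every knockout heart lay above every wild-type heart, with means of 245 ± 21.1 and 436 ± 36.6 CPM (SD, n = 3 each). The log2 fold change was 0.83 ± 0.12 (SE, adjusted p = 0.000707, edgeR), and it passed in each alternative run. Of 9 exon blocks with at least 50 reads summed over the 3 wild-type hearts, all 9 were higher in the knockout, by 1.31- to 2.15-fold, and 8 did not overlap. The rise was therefore spread along the gene.

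The Kv4 pore subunits of the same channel passed no test in experiment A. Kcnd2 stood at 34.2 ± 4.03 and 33.7 ± 1.65 CPM, and Kcnd3 at 22.1 ± 1.54 and 19.6 ± 0.165 CPM (SD, n = 3 each). Kcna4, the subunit of the slow component, was under 2 CPM in all 6 hearts. In experiment B all 3 tested subunits of this current had lower means in Cre+ hearts, and none passed the adjusted threshold. Kcnip2 read 1248, 800, 876, 1462 and 632 normalized counts in controls and 961, 452, 247 and 534 in Cre+ hearts. The groups overlapped through Cre+ replicate 1, which lay above 3 of the 5 controls, and the log2 fold change was −0.96 ± 0.39 (adjusted p = 0.185, limma). With the atrial score as a covariate it was −0.033. Kcnd2 averaged 68 ± 59.2 in controls (SD, n = 5) and 15.2 ± 7.93 in Cre+ hearts (n = 4), −1.66 on the log2 scale with an adjusted p of 0.0647 in limma. Its groups overlapped because control replicate 1 was at 21, and the control mean rested on replicate 4 at 171. Kcnd3 averaged 87.2 ± 24.3 and 45 ± 28.1 (−1.20, adjusted p = 0.0844, limma), again with Cre+ replicate 1, at 85, among the controls.

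Kcnv2 was the member that separated the groups in both experiments. It encodes Kv8.2, a silent subunit that forms no channel alone and modifies Kv2 channels. In experiment B it read 158, 121, 137, 62 and 54 normalized counts in controls and 28, 5, 1 and 9 in Cre+ hearts. Every Cre+ heart lay below the lowest control, the male replicate 5, and the log2 fold change was −3.77 ± 0.66 (adjusted p = 0.0203, limma). The call held in females alone (−4.30, adjusted p = 0.0283) and under TMM and quantile scaling. It was lost without control replicate 1, 2 or 3 (adjusted p = 0.0809, 0.0665 and 0.0542) and without Cre+ replicate 2 (0.077), at log2 fold changes of −3.62, −3.74, −3.68 and −3.61. With mitochondrial share or the atrial score as a covariate it fell short as well (−2.76, adjusted p = 0.104, and −2.64, adjusted p = 0.864). Cre+ replicate 1, with Myl7 at a control level, had 28, below all 5 controls. In experiment A the wild-type hearts read 15.9, 20.9 and 22.6 CPM and the CAP2 -/- hearts 13, 12.5 and 9.81. This was a step of −0.75 ± 0.19 on the log2 scale (adjusted p = 0.0637, edgeR), which passed in DESeq2 (0.0191), without the filter on low counts and without wild-type replicate 1. Both exon blocks of the gene were lower, at 0.533 and 0.639 of wild type.

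Of the other delayed rectifier genes, Kcne1 had the highest fold in experiment A. It encodes the β subunit that slows the Kcnq1 channel. It read 5.41, 6.04 and 4.41 CPM in wild type and 11.2, 7.67 and 11.9 CPM in CAP2 -/-, 1.94-fold apart without overlap (log2 0.96 ± 0.24, adjusted p = 0.0609, edgeR, and 0.0171 in DESeq2). In experiment B its means were 46.6 ± 33.8 and 85 ± 32 normalized counts, with overlap (1.00 ± 0.49, adjusted p = 0.256, limma). Its pore partner Kcnq1 had nearly equal means in both, at 61.1 and 61.4 CPM and at 146 and 146 normalized counts. Kcna5 (Kv1.5) read 48.8, 54.5 and 44.4 CPM in wild type and 34.2, 33.6 and 39.3 in CAP2 -/- (−0.46 ± 0.13, adjusted p = 0.113, edgeR), without overlap. In experiment B its groups overlapped, with 46 to 273 in controls and 90 to 240 in Cre+ hearts. Kcnh2 differed by less than its SE in both experiments, at log2 −0.044 ± 0.14 and −0.22 ± 0.27. Kcna7 read 16.8 and 16.2 CPM in experiment A, and in experiment B it was too low to test, at 0 to 3 outside control replicate 4, where it was 25.

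**Figure D3:**
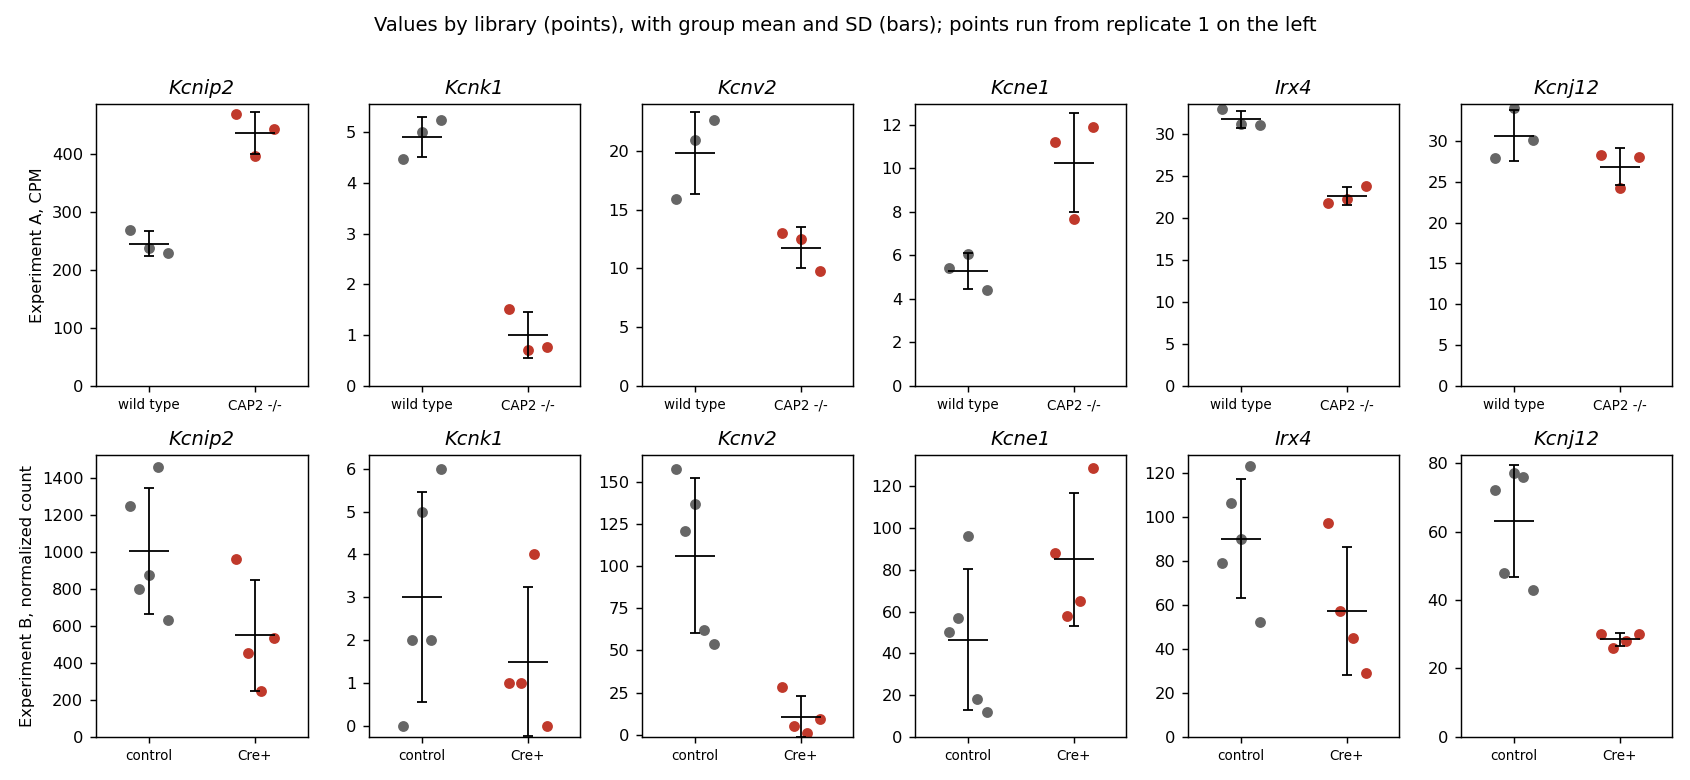
Values of 6 members in every library as points, with group mean and SD, for experiment A (CPM, top) and experiment B (normalized counts, bottom). Kcnv2 separates the groups in both rows, Kcnip2 is higher in CAP2 -/- hearts and overlaps in experiment B, and Kcnj12 separates only the groups of experiment B.

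The inward rectifiers overlapped between groups in experiment A, and 4 of the 5 had lower means in Cre+ hearts with or without control replicate 4. Kcnj12 (Kir2.2) read 72, 48, 77, 76 and 43 normalized counts in controls and 30, 26, 28 and 30 in Cre+ hearts. The Cre+ values lay within 4 counts of each other and all below the controls, at 63.2 ± 16.4 against 28.5 ± 1.91, and the log2 fold change of −1.09 ± 0.28 had an adjusted p of 0.0698 (limma). It was −1.04 with the atrial score as a covariate, and without control replicate 5 it passed (−1.21, adjusted p = 0.0384). Kcnj2 (Kir2.1), the main subunit of the same current, read 117, 91, 63, 399 and 64 in controls and 62, 43, 37 and 11 in Cre+ hearts. Its groups were separated by 1 count (−1.78 ± 0.60, adjusted p = 0.133, limma), and its control mean of 147 was raised by replicate 4. Kcnj3, the pore of the acetylcholine-gated channel, averaged 239 ± 136 and 88.5 ± 58.4 (−1.40, adjusted p = 0.1), while its partner Kcnj5 averaged 261 ± 228 and 180 ± 86.3 with wide overlap. Control replicate 4 read 648 against 102 to 287 in the other controls, and without it the Kcnj5 control mean was below that of Cre+ hearts and the log2 fold change turned from −0.20 to 0.11. Kcnj11 (Kir6.2) averaged 520 ± 176 and 309 ± 45.5 (−0.68, adjusted p = 0.177). In experiment A the 5 inward rectifier genes had log2 fold changes from −0.20 to 0.024, and all 5 overlapped.

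The K2P channels, which set background potassium leak, held the member that fell in experiment A. Kcnk1 (TWIK-1) read 4.47, 5.01 and 5.25 CPM in wild type and 1.52, 0.715 and 0.76 CPM in CAP2 -/- hearts. Every knockout heart lay well below every wild-type heart, and the log2 fold change was −2.31 ± 0.37 (adjusted p = 0.00252, edgeR), past the threshold in each alternative run. Its 2 exon blocks with enough reads were at 0.194 and 0.217 of wild type. Kcnk1 shares 179 exonic bases with the antisense gene Gm45875, and whether the counting of experiment A used strand is not given in the sources used here. In experiment B Kcnk1 was at 0 to 6 normalized counts and could not be tested. Kcnk3 (TASK-1) read 1599, 1687, 1715, 1221 and 1068 in controls and 1016, 835, 877 and 848 in Cre+ hearts. These groups did not overlap, with a step of −0.74 ± 0.20 (adjusted p = 0.0854, limma) that passed without control replicate 4. In experiment A Kcnk3 stood at 419 ± 32.4 and 359 ± 37.9 CPM (−0.22, adjusted p = 0.537, edgeR).

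**Figure D4:**
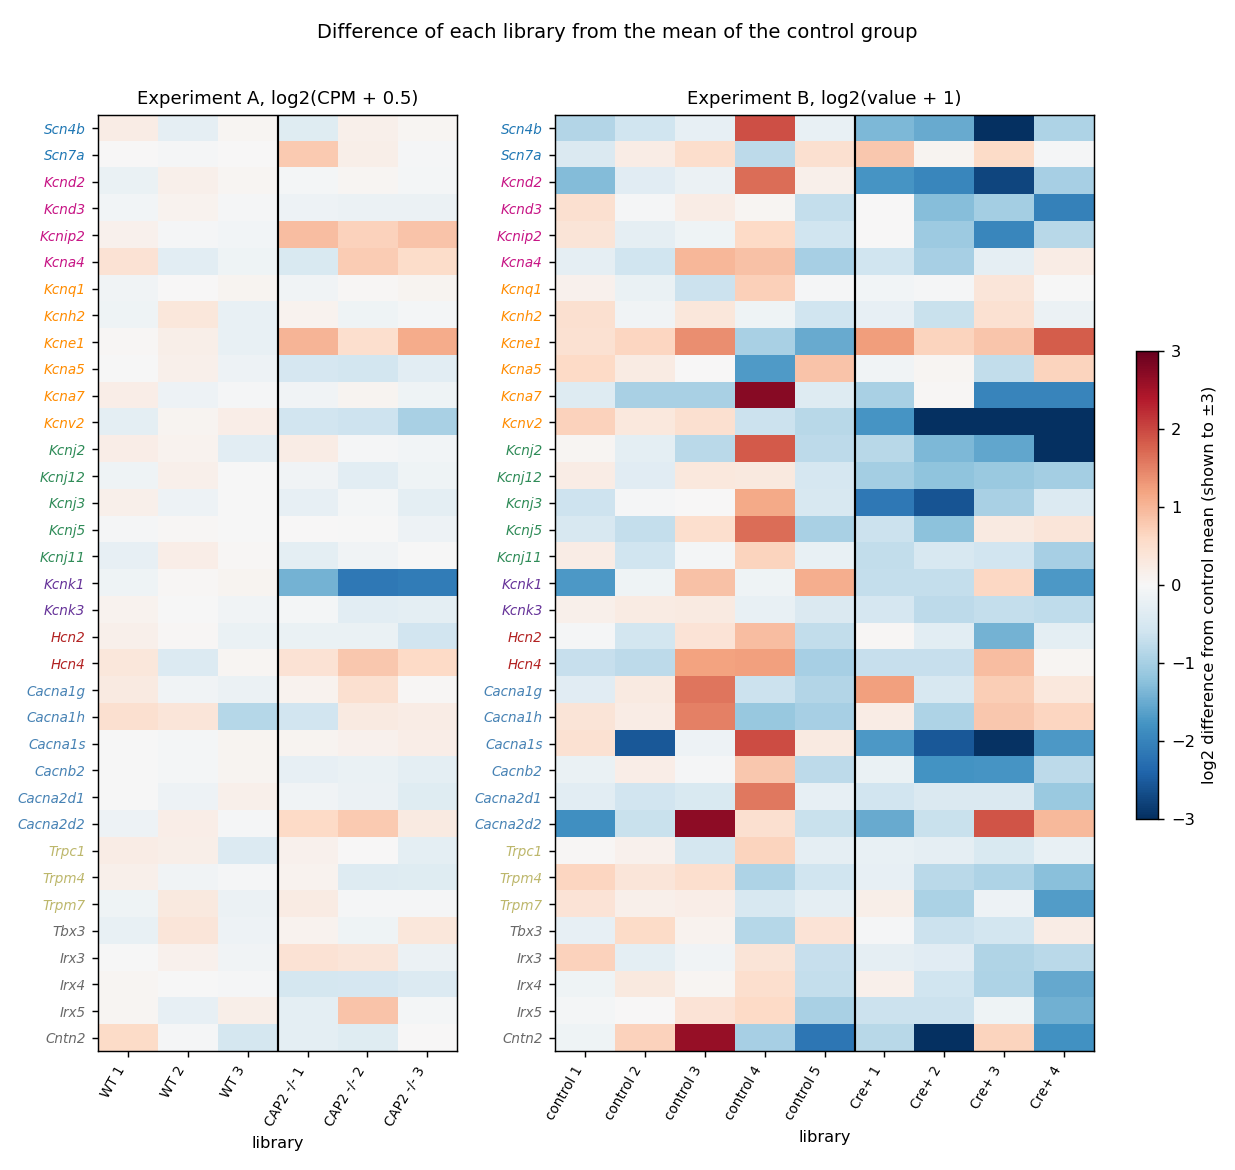
Log2 difference of each library from the mean of its control group (colour, shown to ±3), with members in rows and libraries in columns, in CPM + 0.5 (experiment A) and normalized counts + 1 (experiment B). Control 4 stands out in red for Scn4b, Kcnj2, Kcnd2 and Kcna7, and Kcnv2 is blue in all 4 Cre+ hearts.

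The sodium channel members are an accessory subunit and an atypical pore. Scn4b read 55, 66, 85, 391 and 87 normalized counts in controls and 39, 35, 9 and 53 in Cre+ hearts, and all Cre+ hearts lay below all controls. The step was −1.58 ± 0.50 (adjusted p = 0.117, limma), and the control mean of 137 rested on replicate 4, without which it was 73.2. With the atrial score as a covariate the step was −0.72. In experiment A it read 225, 162 and 201 CPM in wild type and 152, 216 and 201 in CAP2 -/- hearts, with full overlap (−0.048 ± 0.15, adjusted p = 0.949, edgeR). Scn7a, the atypical sodium channel Nax, averaged 20.6 and 26.3 CPM in experiment A, where knockout replicate 1 at 35.6 stood apart, and 182 and 225 normalized counts in experiment B. Neither difference passed the threshold.

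The pacemaker channels passed no test. Hcn4, the main pacemaker channel of the sinus node, read 7.35, 4.17 and 5.97 CPM in wild type and 7.8, 10.3 and 8.91 in CAP2 -/- hearts. The groups did not overlap, by under 1 CPM, and the log2 fold change was 0.61 ± 0.24 (adjusted p = 0.353, edgeR). Hcn2, the more common form in ventricle, read 44.2, 41 and 34.6 CPM in wild type and 34.4, 34.3 and 26.5 in CAP2 -/- (−0.33, adjusted p = 0.427). In experiment B Hcn4 was 15, 14, 59, 60 and 12 in controls and 15, 15, 48 and 26 in Cre+ hearts, with a log2 fold change of −0.065 ± 0.59 (adjusted p = 0.957, limma) that was 0.037 under TMM scaling. Hcn2 averaged 63.4 ± 31.5 and 43.2 ± 16 there, with overlap.

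Calcium channel genes showed no call in either experiment. Cacna1s, the skeletal muscle L-type pore, read 31, 3, 20, 89 and 27 normalized counts in controls and 6, 3, 2 and 6 in Cre+ hearts. Only control replicate 2 reached down to the Cre+ range, and the step was −2.03 ± 0.68 (adjusted p = 0.131, limma). Of 15 skeletal muscle markers, 9 were tested, and 5 rose in Cre+ hearts (Tnnt3, Tnni2, Casq1, Atp2a1 and Mybpc2) while Ckm and Eno3 had log2 fold changes of −0.23 and −0.74. The 15 summed to 14768 to 22494 normalized counts in controls and 10789 to 19627 in Cre+ hearts. These sums came mostly from Ckm (means 9155 and 8214) and Eno3 (8313 and 4822), so they do not reflect the 5 that rose. The part of the 15 markers in the Cacna1s value was not tested. In experiment A Cacna1s stood at 33.9 ± 1.99 and 37.2 ± 1.37 CPM (0.14 ± 0.13, adjusted p = 0.787, edgeR). Cacnb2, the main cardiac β subunit, averaged 214 ± 88.6 and 101 ± 56.1 in experiment B (−1.11, adjusted p = 0.151), and 77.3 ± 3.75 and 65 ± 1.87 CPM in experiment A, without overlap there (−0.25, adjusted p = 0.455). Cacna2d1, the main α2δ subunit, averaged 628 and 340 in experiment B. Without control replicate 4, which read 1557, the controls ran from 349 to 436 against 241 to 387 in Cre+ hearts. Its relative Cacna2d2 read 3.99, 5.22 and 4.42 CPM in wild type and 7.09, 8.21 and 5.59 in CAP2 -/- (0.62 ± 0.25, adjusted p = 0.352, edgeR). The T-type pores Cacna1g and Cacna1h overlapped between groups in both experiments, at log2 0.20 and −0.09 in experiment A and 0.32 and 0.066 in experiment B.

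The TRP channels, which pass sodium, calcium or magnesium, had log2 fold changes from −0.21 to 0.056 in experiment A, with overlap for all 3. Trpm4, a calcium-activated cation channel of the conduction system, read 269, 222, 243, 90 and 112 normalized counts in controls and 143, 98, 90 and 71 in Cre+ hearts. Within the females, the controls ran from 222 to 269 and Cre+ from 90 to 143, while the 2 male controls read 90 and 112 and the male Cre+ heart 71. The groups were thus apart within the females, and the males held only 1 Cre+ heart. The sex-adjusted step was −0.96 ± 0.23 (adjusted p = 0.064, limma), and it passed without control replicate 4 or without Cre+ replicate 1. Its adjusted p in limma was 0.0501 in females alone and 0.236 without the sex term. With mitochondrial share or the atrial score as a covariate it was 0.264 and 0.967. In experiment A Trpm4 read 32.2, 26.5 and 27.9 CPM in wild type and 31, 22 and 22.3 in CAP2 -/- (−0.21 ± 0.16, adjusted p = 0.732, edgeR). Trpm7 averaged 395 ± 94.7 and 275 ± 142 in experiment B (−0.79, adjusted p = 0.131), and Trpc1 30.6 ± 10.3 and 23.8 ± 1.89, both with overlap.

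Among the conduction regulators Irx4, a homeobox factor that marks ventricular muscle, had the smallest p. It read 32.9, 31.2 and 31 CPM in wild type and 21.7, 22.2 and 23.8 CPM in CAP2 -/- hearts, a tight and separated pair of groups. The step was −0.49 ± 0.13 (adjusted p = 0.0946, edgeR), with an adjusted p of 0.03022 in the authors' deposited table. In experiment B it read 79, 106, 90, 123 and 52 in controls and 97, 57, 45 and 29 in Cre+ hearts (−0.80 ± 0.34, adjusted p = 0.198, limma), and Cre+ replicate 1 lay among the controls. With the atrial score as a covariate the value was −0.13. Irx3, which shapes fast conduction in the ventricle, and Irx5, which sets the gradient of Kcnd2 across its wall, stood at 60.4 and 38.5 and at 22.2 and 13 normalized counts, with adjusted p of 0.279 and 0.275 (limma). In experiment A both overlapped, at 17.8 and 20.9 and at 4.23 and 5.12 CPM. Tbx3, the repressor that marks the nodes, averaged 12.9 and 13.7 CPM and 60.8 and 49.5 normalized counts, within its spread in both. Cntn2, a contactin of Purkinje cells, ran from 10 to 302 in controls and from 4 to 78 in Cre+ hearts, and from 2.58 to 6.17 CPM in experiment A.

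Genes of the same currents outside the 35 were read from lists of other channels (68 genes), channel regulators (19) and conduction regulators (22), 108 different genes in all. In experiment A 88 of them were tested, and 3 were called higher and 1 lower, against 1.35% of all genes called. Their median log2 fold change was 0.003, against 0.0057 for all genes. The calls were Nppa, the atrial natriuretic peptide (5.48, adjusted p = 3.07e-10), the sodium-calcium exchanger Slc8a1 (0.65, adjusted p = 0.00694), the caveolin Cav3 (0.53, adjusted p = 0.0363) and the skeletal sodium channel Scn4a (−0.99, adjusted p = 0.0394, edgeR). In experiment B 70 were tested, of which 41 had log2 fold changes below 0, against 58.5% of all genes. Their median was −0.14, against −0.12 for all genes. By list the medians were −0.30 for other channels, −0.21 for channel regulators and 0.0058 for conduction regulators. Of the 70, 1 was called higher and 2 lower, against 1.88% of all genes called. The 2 lower genes were the chloride channel Clcn1 (−4.37, adjusted p = 0.0163) and the sulfonylurea receptor Abcc9 (−1.63, adjusted p = 0.0477, limma), which partners Kcnj11. Clcn1 read 50, 96, 85, 36 and 6 in controls and 3, 1, 0 and 2 in Cre+ hearts. Cacna1c, the main pore of the L-type calcium current, passed in neither experiment, at 292 and 279 CPM in experiment A and at 1085 and 513 normalized counts in experiment B (−1.22, adjusted p = 0.116, limma).

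The table of experiment A also holds exons, from which transcript shares of each gene were formed. Of the 35 members, 16 had more than 1 transcript with at least 5% of the gene's counts, and these held 56 such transcripts. Of the 56, 3 did not overlap between the groups, against 11.0% of 25369 such transcripts over all genes tested. In Kcnd3, transcript ENSMUST00000141694 held 14.4% of the gene's counts in wild-type and 6.09% in CAP2 -/- hearts. In Kcnj3, ENSMUST00000112633 held 16.9% and 9.44%, and in Cacnb2, ENSMUST00000114719 held 4.35% and 6.54%. With 3 hearts against 3 an exact permutation test cannot reach 0.05, and none was run on these shares.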

How the data were processed

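Whole-heart RNA was measured in 3 wild-type and 3 CAP2 -/- libraries (experiment A) and in 5 control and 4 Cre+ libraries (experiment B). The fifth Cre+ library has no values in the deposited table and was not analysed here. Experiment A holds the authors' deposited estimated counts per gene and exon, with a comparison table of mean signal, log2 fold changes and p-values that the authors deposited. Experiment B holds whole-number normalized counts, used as a score on the authors' deposited scale, so no count model was run on them. STAR 2.6.0c, DESeq and mm10 are named per the submitters' processing notes, without roles, and neither the counter nor its annotation or strandedness is given in the sources used here. Symbols and exon lengths came from GENCODE (GRCm38).

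Counts of experiment A were rounded and tested with edgeR 4.0.16 (TMM, filterByExpr, robust quasi-likelihood test). Experiment B was tested with limma 3.58.1 on log2(value + 1), for genes with a mean of at least 10, with sex as a term. P-values were adjusted by Benjamini-Hochberg over all genes tested, with a threshold of 0.05. CPM use TMM-adjusted library sizes. The fits were tested on simulated data with known changes put in. The simulated noise was independent between genes and libraries, so it did not model a library that stands apart or variation that moves with the groups. DESeq2 1.42.0, other scalings and filters, added covariates, a replicate block and each library left out were the alternatives. The labels do not state that libraries are separate animals, so p-values measure the spread between libraries.

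All 35 members are named. Members called in either experiment, those separated in both, and the member of smallest p in each current are given by library with log2 fold change, SE and adjusted p. Called genes of the other channel lists are named, except one that is not reported here. Other values given by library were chosen after they were seen. The members and lists were chosen with earlier results of these data known.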

Additional observations from a re-analysis of the deposited data

Results flagged for a closer look

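Over the 35 members and the groups of 4 or 5 libraries in experiment B, 70 groups were screened for a library that stands apart. The measure was its gap to the next library, over the range of the group. For normally distributed values, chance alone flags about 1 in 20, and the values here were counts without a log, so that rate may not hold. There were 10 such cases, in 10 different members, each with the highest library of its group. The members share the same libraries, so these cases are not independent. Control replicate 4 was the highest in 6 of them: Scn4b at 391 normalized counts against 55 to 87 in the other controls, Kcnj2 at 399 against 63 to 117, Kcnj3 at 475 against 140 to 218, Kcnd2 at 171 against 21 to 59, Kcna7 at 25 against 1 to 2, and Cacna2d1 at 1557 against 349 to 436. Control replicate 3, the control with the most Myl7 (3014) and the highest mitochondrial share (69.5%), was highest in 3: Cacna1g at 326 against 58 to 129, Cacna2d2 at 90 against 3 to 19, and Cntn2 at 302 against 10 to 79. Cre+ replicate 3 had Kcnq1 at 180 against 132 to 139 in the other Cre+ hearts.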

How the results depend on the processing

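In experiment A, DESeq2 called 391 genes and 4 members, and edgeR without a filter on low counts called 512 genes and 5 members (Kcna5, Kcne1, Kcnip2, Kcnk1 and Kcnv2). Leaving out each library in turn gave 126 to 275 genes and 2 to 3 members. Kcnip2 and Kcnk1 were called in every one of these fits. In experiment B the fit without a filter on low values called 346 genes and 2 members (Kcnd2 and Kcnv2), mitochondrial share as a covariate left 36 genes and 0 members, and the atrial score left 7 genes and 0 members. Leaving out each library gave 39 to 695 genes (fewest without Cre+ replicate 2, most without Cre+ replicate 1) and 0 to 5 members, with 0 without control replicate 1, 2 or 3 or Cre+ replicate 2. Kcnv2 log2 fold changes then ran from −4.34 to −3.10. The direction turned for Scn4b in experiment A, where leaving out libraries gave −0.17 to 0.084, and for Hcn4 in experiment B, at 0.037 with TMM, 0.038 with quantile scaling and −0.41 to 0.35 with libraries left out. Over the 9 members given by library with full statistics (Scn4b, Kcnj12, Kcnip2, Kcnv2, Kcnk1, Hcn4, Cacna1s, Trpm4 and Irx4), 213 of 234 alternative values kept direction and side of the threshold, 6 lost the call, 7 gained it and 8 turned. Over all members, the sign turned under at least 1 alternative for 12 of 35 in experiment A and 10 of 32 in experiment B. Replicate numbers do not pair the libraries (same-number correlations −0.17 to −0.03 in experiment A and −0.11 to 0.24 in experiment B). A replicate block called 115 genes higher, 51 lower and 2 members in experiment A, and 394 genes and 2 members (Kcnj3 and Kcnv2) in experiment B, where it replaced the sex term. Depth in experiment B is unknown, so values of a few counts (Kcnk1, Kcna7, Kcna4, and Kcnv2 and Cacna1s in Cre+ hearts) carry no stated precision. The size of such steps depended on the count added before the log. With 10 added in place of 1, Kcnv2 went from −3.77 to −2.64 (adjusted p = 0.00505, limma, still called). Cacna1s went from −2.03 to −1.21.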
